A study of Mus musculus with 15 samples.

Results

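The first response of macrophages to lipopolysaccharide was read from 6 libraries of chromatin-associated RNA, out of 15 in the series. Of these, 3 came from untreated cells and 3 from cells given 10 ng/ml lipopolysaccharide (LPS, a component of the bacterial cell wall) for 30 min, and they were chosen by these labels. All were macrophages differentiated in culture from the marrow of C57BL/6 mice and used on day 7, and all groups share the L929-conditioned medium that drives this differentiation. Nothing in the labels says whether the libraries of a group came from separate animals or cultures, so each p-value is set against a spread among libraries that may be technical only. The other groups, at 1 h, 2 h and 4 h with the same dose and 3 libraries each, entered the same fit.

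Macrophages sense LPS through the receptor complex of TLR4, whose adaptors activate NF-kB and the mitogen-activated protein kinases. The genes that answer first are called primary response genes, because their transcription needs no newly made protein. They include transcription factors, cytokines, chemokines and feedback inhibitors of the pathway itself. RNA bound to chromatin is rich in transcripts that are still being made, so that it is used to follow transcription sooner than total RNA allows.

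The values are kallisto's estimated counts for 113193 Ensembl transcripts. None of these identifiers was paired with a gene name in the sources used here, so the features below are transcripts, given by identifier or by length. Isoforms of 1 gene could not be grouped, macrophage markers could not be checked, and no sequence is shown. As in any bulk sample, fewer cells of a type and less RNA per cell cannot be told apart. The 6 libraries held 7537521 to 11892599 estimated counts, with 47668 to 60340 transcripts at 1 count or more. A single transcript, ENSMUST00000217116.1 (3756 nt), the most abundant over these libraries, took 11.9%, 17.5% and 34.8% of the counts in the untreated libraries numbered 1, 2 and 3 and 9.66%, 37.6% and 31.9% at 30 min. The 95% Wilson interval of the lowest share ran from 9.64% to 9.68%; such intervals, and the floors below, cover counting error only. The groups overlapped (exact permutation test, two-sided p = 0.8, where 0.1 is the smallest possible). For the 10 most abundant transcripts of a library, the summed shares were 24.6% ± 11.3 and 29.5% ± 14.6 (SD, n = 3, exact p = 0.8).

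Within 30 min a small set of transcripts rose steeply, and by the test used here fewer fell. Of 46186 transcripts that passed a filter on low counts, 423 were raised, or 0.916%, and 41 were lowered, or 0.0888% (edgeR quasi-likelihood test with the replicate number as a block, Benjamini-Hochberg adjusted p under 0.05). The median log2 fold change of the raised transcripts was 3.33 (3.31 with transcripts at 0 in untreated cells set to a lower bound), that of the lowered ones was -2.50 (-2.43 at the bound), and that of all tested was -0.05. Called changes are selected to be large. The excess of rises depends on the method: limma on log2(TPM + 1) called 455 raised and 504 lowered. Without the block 162 were raised and 8 lowered, all of them among the 423 and the 41. A fit of only these 6 libraries, also with the block, called 0 (4120 at an unadjusted p under 0.05), and DESeq2 called 1556 raised and 860 lowered. Leaving out 1 untreated library, number 1, 2 or 3, gave 110, 50 or 159 raised and 4, 1 or 13 lowered. Leaving out 1 library of 30 min gave 620, 163 or 165 raised and 144, 8 or 8 lowered, in the same order.

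**Figure D1:**
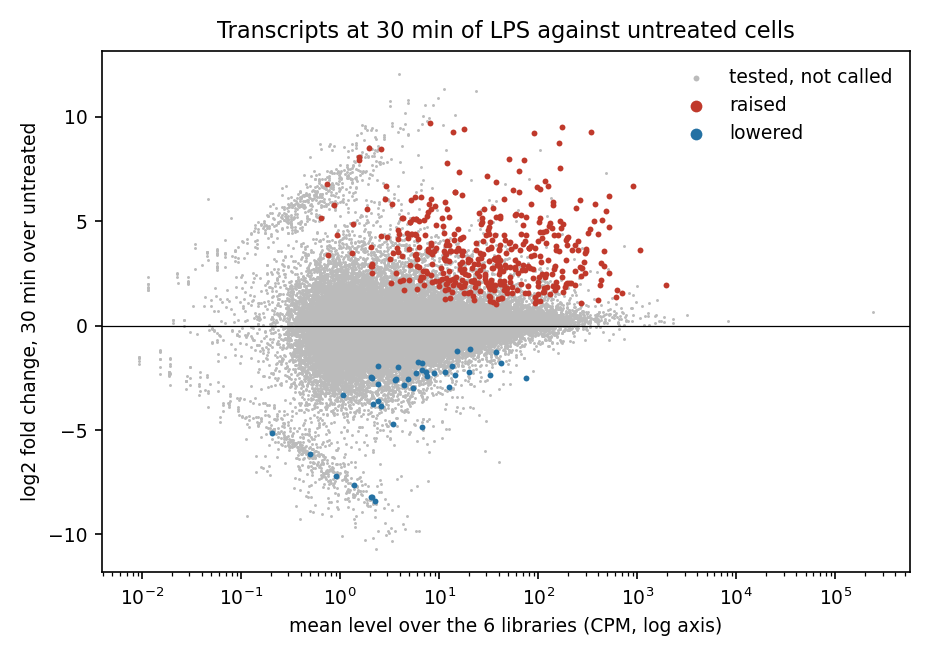
Each point is 1 of 46186 tested transcripts, with its mean level over the 6 libraries in CPM on a log axis and its fitted log2 fold change at 30 min over untreated cells. The 423 raised transcripts (red) lie mostly between log2 fold changes of 2 and 5 at levels above 10 CPM, and many transcripts of equal or larger fold at lower levels were not called (grey).

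By size, with transcripts at 0 in untreated cells taken at their bound, all 423 raised transcripts rose at least 2-fold, 349 at least 4-fold, 141 at least 16-fold and 33 at least 64-fold. The middle 50% of their fitted log2 fold changes ran from 2.20 to 4.43. No count in any untreated library was found for 6 of the 423, and for 646 of all 46186 tested, which is a like share. Scaled for length as the deposited TPM, their median level was 10.6 in untreated cells, against 8.75 for all tested transcripts, and 73.5 at 30 min, against 6.24. In untreated cells 47 of them lay under 1 TPM, and at 30 min 393 lay at 10 TPM or more and 181 at 100 TPM or more. The fold was larger from a low start, which follows in part from the selection, since a low level must change more to be called. The same untreated libraries also set both the class and the base of the fold, which by itself ties a low class to a larger fold. The median log2 fold change was 5.15 (4.37 at the bound) for the 47 raised transcripts under 1 TPM in untreated cells, 3.74 for the 155 between 1 and 10 TPM, and 2.67 for the 221 at 10 TPM or more. The share of tested transcripts called raised was 1.24%, 0.721% and 1.06% in these 3 classes.

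The largest rises by fitted log2 fold change, among transcripts with 10 CPM or more in 1 group and no overlap of the groups, began with ENSMUST00000196449.4 (2532 nt), although that rank rests on a fitted value over a group at 0. It had no count in any untreated library and reached 0.747, 41.2 and 6.08 CPM at 30 min in numbers 1, 2 and 3. Its level was thus at least 61.0-fold higher, taking 3 counts in each untreated library as the floor (adjusted p = 0.0345 by edgeR). This bound rests on the library numbered 2: without it the level was at least 13-fold higher, and the adjusted p was 0.113. The bound lies below the fitted folds of the next 19 by rank. The libraries of 30 min differed more among themselves than the lowest of them did from untreated cells. Without the block the adjusted p was 0.067.

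The next was ENSMUST00000028881.13 (1356 nt), at 0.112, 0.547 and 0.116 CPM in untreated cells and 19.6, 963.9 and 51.8 CPM at 30 min. All 3 stimulated libraries lay far above all untreated ones, and the library numbered 2 was the highest of its group at both times. The log2 fold change was 9.53 (edgeR adjusted p = 0.00733), and the log2 ratio within pairs, of CPM with 0.5 added, was 7.10 ± 2.48 (SD over 3 pairs). Per length it went from 0.338, 1.51 and 0.272 TPM to 53.0, 1409 and 105.1 TPM.

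**Figure D2:**
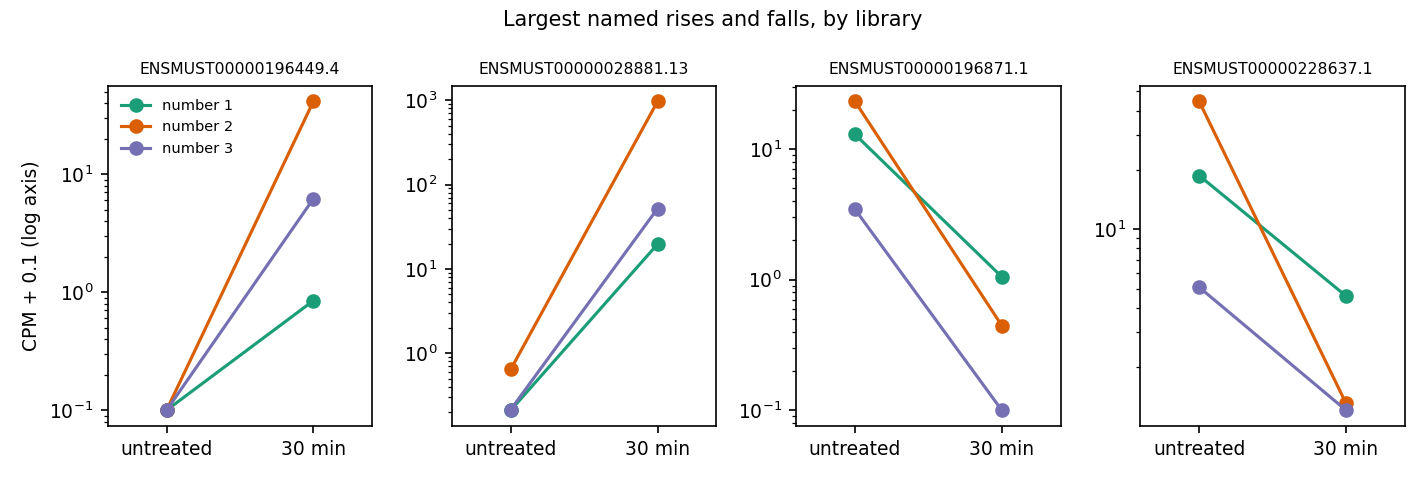
Levels of the 2 named rises and 2 named falls in each library, in CPM with 0.1 added on a log axis, with lines joining the libraries of the same number. No line of the rises goes down and none of the falls goes up, and the library numbered 2 moved the most in each panel.

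The 20 largest rises spanned lengths of 689 to 6199 nt, and those after the first, which has only a bound, spanned log2 fold changes of 6.49 to 9.53. For 19 of the 20 the untreated mean was under 5 CPM. The fifth of them, 2066 nt long, was even across the libraries of 30 min: it had 2.57, 0.820 and 0 CPM in untreated cells and 822.7, 666.8 and 571.3 CPM at 30 min (log2 fold change 9.26, edgeR adjusted p = 0.00736). The ninth, a transcript of 1871 nt, was even as well, with 1.06, 0.273 and 0.463 CPM before and 125.1, 165.4 and 134.3 CPM after (log2 fold change 7.95, adjusted p = 0.00439). Others were uneven. The sixth, of 689 nt, went from 0.0559, 0.0911 and 0.347 CPM to 12.5, 500.4 and 24.1 CPM, where the library numbered 2 held most of the signal (log2 fold change 9.21, adjusted p = 0.0190).

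The smallest adjusted p belonged to a transcript of 1578 nt, picked here for that value. It had 21.7, 19.7 and 25.2 CPM in untreated cells and 584.9, 835.5 and 707.0 CPM at 30 min. Each group was tight and the gap between them wide (log2 fold change 5.00, edgeR adjusted p = 0.000168). At 1 h, 2 h and 4 h its log2 fold change against the same untreated libraries was 4.91, 4.79 and 4.49.

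The gain, in CPM and so in counts rather than per length, was shared out over many transcripts. Summed over the 423, mean levels rose by 54557 CPM, of which the largest single gain made up 4.35%, the 10 largest 22.0% and the 50 largest 56.1%. That largest gain was of a 4004 nt transcript with many counts before LPS, at 882.9, 767.3 and 584.2 CPM, which reached 1789, 4740 and 2821 CPM (log2 fold change 1.94, edgeR adjusted p = 0.0186). Its fold was thus modest although its gain was the largest. The third largest gain started low instead: a 6199 nt transcript went from 9.61, 13.3 and 17.1 CPM to 452.7, 3601 and 1297 CPM (log2 fold change 6.70, adjusted p = 0.00439). With the most abundant transcript set aside, the raised set held 1.51%, 1.44% and 1.20% of the counts in untreated cells and 6.08%, 11.5% and 6.81% at 30 min, in the order of the numbers. The untreated libraries were close to each other, and the 30 min library numbered 2 stood above the other two. These transcripts were called from the same libraries, so that their shares are selected to differ.

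The lowered transcripts were fewer and less abundant at 30 min. At the bound for those without a count at 30 min, 31 of the 41 fell at least 4-fold and 2 at least 16-fold, with a median of 10.8 TPM in untreated cells and 1.34 TPM at 30 min. All 41 had a count in every untreated library. In the libraries of 30 min 7 had no count at all, against 676 of all 46186 tested. Together the 41 held 0.115% ± 0.043 of the counts before and 0.0205% ± 0.0085 after (SD, n = 3, most abundant transcript set aside). They were called from the same libraries, so that their low levels and shares at 30 min are selected. The largest fall by the same rule was that of ENSMUST00000196871.1 (694 nt), from 12.8, 23.1 and 3.35 CPM to 0.951, 0.345 and 0 CPM (log2 fold change -4.84, edgeR adjusted p = 0.0424). ENSMUST00000228637.1 (783 nt) followed, from 18.6, 44.4 and 4.97 CPM to 4.48, 1.21 and 1.11 CPM (log2 fold change -2.96, adjusted p = 0.0481). In both, the untreated library numbered 3 was the lowest of its group. It came near the highest stimulated library for ENSMUST00000228637.1, at 4.97 against 4.48 CPM, and less so for ENSMUST00000196871.1, at 3.35 against 0.951 CPM. The groups did not overlap in either fall. Without the block neither passed the test (adjusted p = 0.179 and 0.182).

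A tighter fall was that of a 3559 nt transcript, the fourth by size. It went from 10.8, 12.7 and 14.3 CPM to 1.97, 2.24 and 2.77 CPM, with log2 ratios within pairs of -2.22 ± 0.04 (SD over 3 pairs, edgeR adjusted p = 0.0234). The third fall by size, of a 2827 nt transcript, was uneven, with 87.7, 250.2 and 53.1 CPM before and 29.4, 17.9 and 11.5 CPM after (log2 fold change -2.50, adjusted p = 0.0345).

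The 3 numbered pairs gave the same direction. In the pair of number 1, number 2 and number 3, 423, 423 and 422 of the raised transcripts were higher at 30 min, where 48.0%, 42.6% and 48.3% of all tested transcripts were. The exception was a 397 nt transcript without a count in either library numbered 3, which had 55.6 and 16.2 CPM in the other libraries of 30 min. In all 3 pairs 422 were higher, where 17.7% of all tested were. All 41 lowered transcripts were lower in every pair, as were 20.4% of all tested. All 3 libraries of 30 min lay above all untreated ones for 403 of the 423, where 5.39% of tested transcripts did, and below them for all 41, where 7.52% did. This agreement is in part a product of the selection, since the calls came from these libraries.

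The size of the rise differed between pairs. The median log2 ratio of the raised transcripts was 2.09 in pair 1, 3.59 in pair 2 and 2.77 in pair 3, while the median over all tested was 0, -0.06 and 0. Pair 2 had the largest of the 3 ratios for 303 of the 423, or 71.6%, against 31.9% of all tested, and pair 1 the smallest for 285, or 67.4%, against 30.7%. The lowered transcripts also moved furthest in pair 2, with medians of -1.92, -2.45 and -1.86. The 30 min library numbered 2 also had the fewest detected transcripts of the 6 (47668), the largest share of the most abundant transcript (37.6%, against 17.5% in the untreated library of that number) and the lowest TMM scaling factor (0.722). The part of these properties in the larger ratios was not tested. The SD over the 3 pair ratios had a median of 0.87 among raised transcripts and 0.45 among lowered ones. For 103 of the 423 the 3 ratios lay within 2-fold of each other, and for 54 they spread over more than 8-fold.

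**Figure D3:**
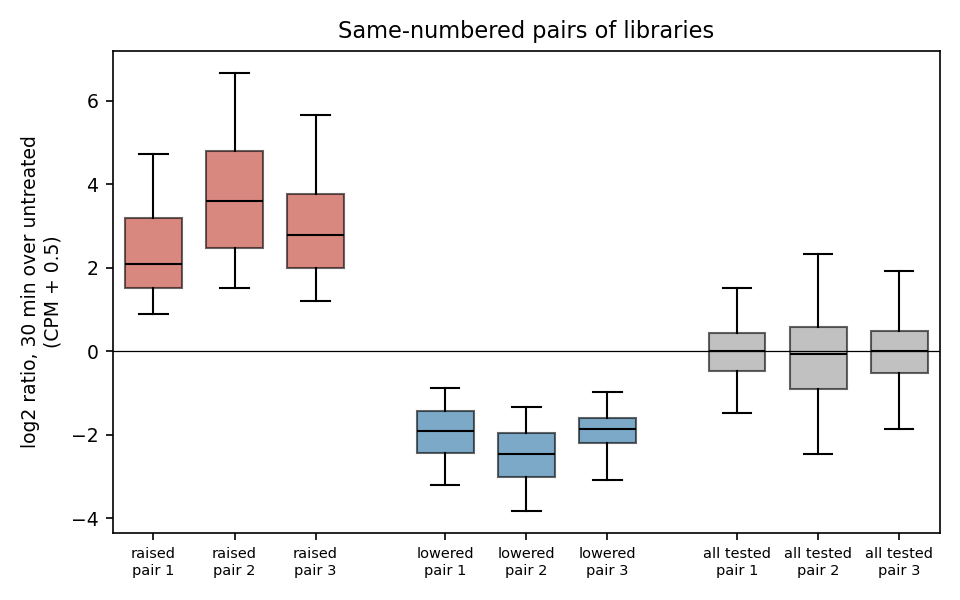
Log2 ratios of 30 min over untreated within each same-numbered pair, of CPM with 0.5 added, for the 423 raised, 41 lowered and all 46186 tested transcripts. Boxes span the middle 50% with the median, and whiskers reach the 5th and 95th percentiles. Raised medians are 2.09, 3.59 and 2.77.

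The agreement was also read in libraries that the call had not used. When all libraries numbered 1 were left out of the fit, 53 transcripts were called raised, and 51 of them were higher at 30 min in pair 1, with a median log2 ratio there of 2.16 (48 at least 2-fold). Over all transcripts in that fit 46.8% were higher in pair 1 and 9.25% were so at least 2-fold. Leaving out number 3 gave 4 calls, all higher in pair 3 with a median log2 ratio of 4.28. Of all transcripts in that fit, 47.4% were higher in pair 3. Leaving out number 2 gave none by edgeR (2579 at an unadjusted p under 0.05). No transcript was called lowered in any of these fits (4422, 2579 and 4200 transcripts in either direction had an unadjusted p under 0.05 without number 1, 2 and 3). As a measure added later, the 100 estimated rises with the smallest p were taken from each fit. In the pair left out, 96, 97 and 95 of them were higher for numbers 1, 2 and 3, with median log2 ratios of 2.15, 4.24 and 2.94. Of all transcripts in these fits, 46.8%, 41.5% and 47.4% were higher in the pair left out, with medians of 0, -0.05 and 0.

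The raised transcripts were of middling annotated length. Their median was 2196 nt (middle 50% from 1166 to 3203 nt), against 2088 nt (873 to 3463 nt) for all tested transcripts and 2659 nt for the lowered ones. The share called raised was highest from 2000 to under 4000 nt, at 1.13% (176 of 15532), and from 1000 to under 2000 nt, at 1.06% (94 of 8901). It was 0.870% under 500 nt (15 of 1724), 0.677% from 500 to under 1000 nt and 0.763% from 4000 to under 8000 nt. It was lowest at 8000 nt and over, at 0.292% (3 of 1029). These 3 long transcripts had log2 fold changes of 1.81, 1.38 and 1.38. The median log2 fold change of raised transcripts went from 4.87 in those under 500 nt to 2.71 in those of 4000 to under 8000 nt. Lowered calls were at 0.135% of tested transcripts from 2000 to under 4000 nt and at 0.060% or less below 2000 nt.

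**Figure D4:**
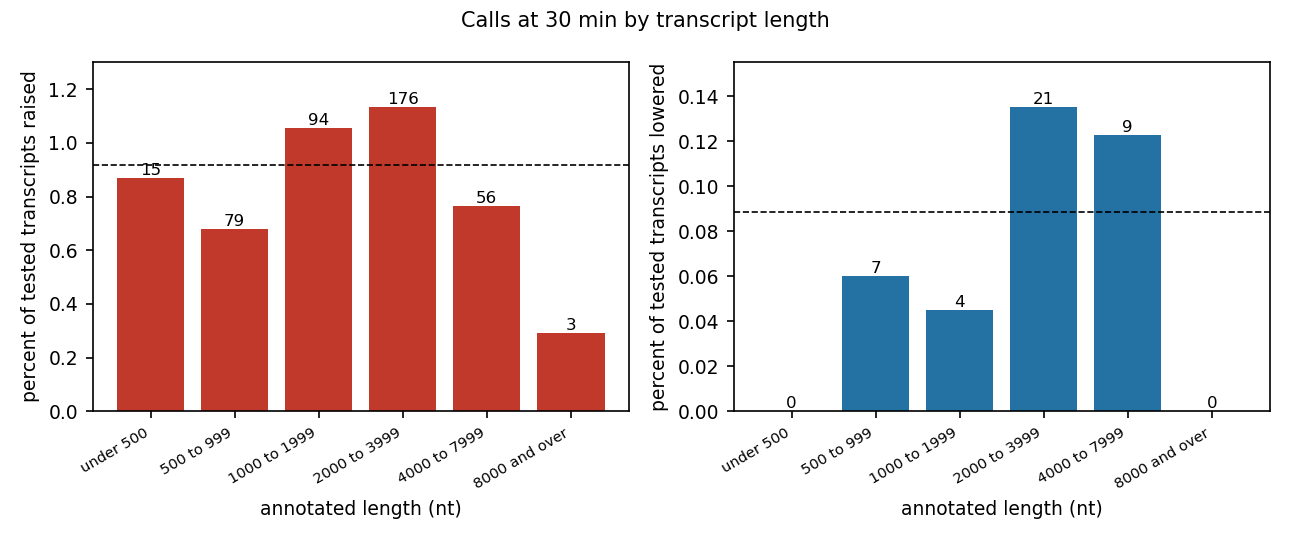
Percent of tested transcripts called raised (left) and lowered (right) at 30 min by annotated length, with the number called above each bar and the percent over all lengths as a dashed line (0.916% and 0.0888%). The bars of raised transcripts are highest between 1000 and 4000 nt and lowest at 8000 nt and over.

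Length moves with the number of counts behind a transcript, and so with the power to call it. The median level rose from 1.07 CPM in the shortest class to 31.4 CPM in the longest. Split by untreated TPM, the order of shorter and longer transcripts varied: those under 2000 nt were raised at 2.08% against 0.990% under 1 TPM, at 0.675% against 0.761% from 1 to 10 TPM, and at 0.899% against 1.25% at 10 TPM or more. TPM is scaled for length, so this split does not hold counts equal. Split instead by quartile of mean level over untreated and stimulated libraries, shorter transcripts were raised more often in the upper quartiles. They were raised at 1.08% against 0.337% in quartile 3 and at 6.50% against 2.07% in quartile 4. In quartiles 1 and 2 the order was reversed, at 0.0360% against 0.0934% and 0.137% against 0.213%, with 10 or fewer calls per class. This level includes the rise itself, so a called transcript can reach an upper quartile through its rise. The split by quartile thus does not hold the starting level equal, and no effect of length is drawn from it. The differences were not tested.

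On isoforms the files allow 1 indirect measure. Kallisto divides a read that fits several transcripts among them, which leaves estimates that are not whole. Of the raised transcripts 33, or 7.80%, had estimates within 0.001 of a whole number in all 6 libraries, against 1387 of all 46186 tested, and of the lowered ones 3 of 41. Read the other way, 2.38% of the 1387 tested transcripts with whole estimates were raised and 0.871% of the others. For 390 of the 423 raised transcripts at least some reads were thus divided with other transcripts, and their fold changes carry an assignment error that the files do not give. Some raised entries had the same length and the same values in all 6 libraries, such as those of 2965 nt and of 791 nt. Each was counted, so the 423 are not all separate signals. The median log2 fold change was 3.09 for raised transcripts with whole estimates and 3.34 for the others. The named rises and falls all had estimates that were not whole.

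The later groups show how long the first wave stood apart. Of the 423 raised transcripts, 401 were also raised at 1 h, where 2.93% of all tested were, 290 at 2 h (6.42%) and 285 at 4 h (8.87%). Of the 41 lowered ones, 14 were also lowered at 1 h, where 0.97% of all tested were, 11 at 2 h (3.06%) and 10 at 4 h (6.27%). These comparisons share their untreated libraries with the one at 30 min, so that the counts are no separate evidence. In the direct test of 1 h against 30 min nothing was called, with edgeR and the block (4006 at an unadjusted p under 0.05), although DESeq2 called 940. Between 30 min and 4 h, 133 of the 423 raised transcripts were lower at 4 h, or 31.4%, against 5.59% of all tested, and 28 were higher, or 6.62%, against 6.79%. Of the 41 lowered transcripts 25 were higher at 4 h and 1 was lower. The 30 min libraries chose these sets and stand in both tests, so that choice and test are not independent. Over all tested transcripts 5720 were called between 30 min and 4 h, 2408 without the block, 3469 or 3448 without the 30 min library numbered 2 or 3, and 3069 without the 4 h library numbered 1. The 133 had a median length of 2316 nt and a median of 12.3 TPM in untreated cells, and the 28 had 2247 nt and 4.46 TPM. Of the 133, 27 were still raised at 4 h against untreated cells, as were all 28 and 230 of the 262 without a call. Of all tested, 8.87% were raised at 4 h. These classes were cut by a test on the same 30 min and 4 h libraries, so the counts are no separate evidence. For the 28, called above a level that was itself called raised, the outcome was all but fixed.

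By group means, 149 of the 423 raised transcripts were highest at 30 min, 174 peaked at 1 h, 38 at 2 h and the last 62 at 4 h. With nothing called between 30 min and 1 h by edgeR with the block, the split between those times is not resolved. The set was chosen as high at 30 min, and the same shares over all tested transcripts were not computed. The third largest rise, a transcript of 4484 nt, had 75.8, 25.3 and 5.95 CPM at 30 min. It differed between 30 min and 4 h by a log2 change of -7.18 (edgeR adjusted p = 0.00146). The seventh, of 1859 nt, had 52.6, 508.0 and 414.7 CPM at 30 min and a log2 change of -3.67 to 4 h (adjusted p = 0.0164). For ENSMUST00000028881.13 that change was 0.27 (adjusted p = 0.886).

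**Figure D5:**
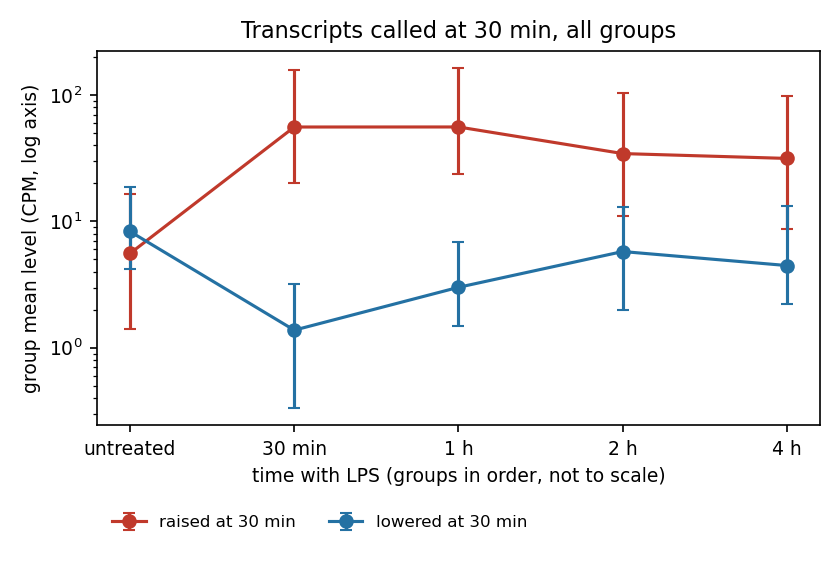
Group mean levels in CPM on a log axis of the transcripts raised (red) and lowered (blue) at 30 min, as the median with the middle 50% over transcripts. Raised transcripts have a median of 5.59 CPM in untreated cells, 56.0 at 30 min and 31.6 at 4 h; lowered ones go from 8.33 to 1.38 CPM at 30 min and to 4.48 CPM at 4 h.

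The step from 30 min to 1 h ran differently by replicate number. Among the 423 raised transcripts the median log2 ratio of 1 h over 30 min was 1.12 in number 1, -0.43 in number 2 and 0.00 in number 3, and 365, 106 and 213 of them were higher at 1 h. Over all tested transcripts the medians were -0.02, 0 and 0, and 44.8%, 48.8% and 48.1% were higher at 1 h. The ratio to 1 h and the ratio to untreated cells share the 30 min library of each number, so that a high or low 30 min library alone moves them in opposite directions. The difference between numbers was not tested, as each number has 1 library at each time.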

How the data were processed

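Chromatin-associated RNA was sequenced from 15 unstranded libraries, 3 in each of 5 groups. The authors deposited, for each library, estimated counts and TPM per Ensembl transcript, made with kallisto 0.44.0 per the submitters' processing notes. Being unstranded, they do not separate a transcript from an antisense partner. The annotation and build were not given in the sources used here. Estimated counts were rounded and filtered with filterByExpr (minimum count 10, total 15), which kept 99.1% to 99.6% of each library's counts, and scaled by TMM. EdgeR 4.0.16 in R 4.3.3 fitted all 15 libraries with group and replicate number, leaving 8 residual degrees of freedom. CPM values use the TMM scaling. Pair ratios are log2 of CPM plus 0.5. Limma 3.58.1 on log2(TPM + 1) and DESeq2 1.42.0 were alternatives.

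Number 1, 2 or 3 was taken to pair libraries by the rule of this comparison, which names the replicate number as block. Deviations from group means correlated at 0.31 to 0.46 in the 3 same-numbered pairs of untreated and 30 min libraries. In the other 6 pairs they correlated at -0.26 to -0.11. Deviations within a group cancel, so positive values in same-numbered pairs bring negative ones in the others. All 30 same-numbered pairs over the 5 groups were at 0.20 or more.

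The members, the gene lists and the tests were chosen with earlier results of these data known. Gene lists, gene sums and cell type markers could not be used, since 0 of the identifiers matched the 49997 genes of the reference table. The rule for names was the 2 largest rises and the 2 largest falls by fitted log2 fold change among called transcripts with 10 CPM or more in 1 group and no overlap, and the most abundant transcript. Other transcripts are given by rank and length, and the one of smallest adjusted p was chosen after its values were seen. The floor for a group at 0 is 3 counts in each library. The test was checked on simulated data.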

Additional observations from a re-analysis of the deposited data

Results flagged for a closer look

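The 2 named falls differed between 30 min and 4 h in the direct test, with the same edgeR fit. ENSMUST00000196871.1 was higher at 4 h than at 30 min by a log2 change of 3.77 (adjusted p = 0.0239), with 4.26, 5.13 and 4.04 CPM at 4 h. ENSMUST00000228637.1 was higher by a log2 change of 2.95 (adjusted p = 0.00875), with 18.9, 22.6 and 11.8 CPM. Both were chosen as low at 30 min, and the same libraries stand in this test.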

How the results depend on the processing

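Every one of the 423 raised and 41 lowered transcripts kept its direction under the other scalings (DESeq2 size factors, library size alone, and library size without the most abundant transcript), without the block and in DESeq2 and limma. These sets were chosen from the same libraries for a large change, so a reversal was unlikely from the start. The same holds for the signs of the named transcripts below, chosen without overlap of the groups. Library size alone moved the median log2 fold change of all transcripts from -0.05 to -0.49. The counts raised and lowered were 211 and 21 with library size alone, 266 and 48 when the most abundant transcript was also left out. They were 180 and 5 against a 2-fold change and 162 and 8 without the replicate block. DESeq2 gave 1556 and 860, and the fit with only the 2 groups gave 0 and 0. Lowered calls numbered 19 without the filter, 73 at a minimum count of 30, and 121 and 504 in limma on log2(TPM + 0.1) and log2(TPM + 1). Raised calls were 91.2% of all calls, but 64.4% in DESeq2, 74.4% and 47.5% in limma on log2(TPM + 0.1) and log2(TPM + 1), and 81.2% without the 30 min library numbered 1. Leaving out libraries gave 0 to 620 raised and 0 to 144 lowered; without all libraries numbered 1, 2 or 3, 53, 0 and 4 were raised. The median length of raised transcripts ranged from 1577.5 to 2245.5 nt. From 30 min to 1 h, leaving out libraries gave 0 to 2 calls and DESeq2 940. From 30 min to 4 h the count was 9795 in DESeq2, 2373 against a 2-fold change, 2408 without the block, 0 with only the 2 groups and 984 to 5188 on leaving out libraries. The difference in the share of the 10 most abundant transcripts ranged from -0.66 to 13.2 percentage points. The cause of these shifts was not tested. Fits that left out libraries or groups also had fewer samples. The 4 named transcripts kept their sign under 20 alternatives each, but fell short of the threshold in 12 (ENSMUST00000196449.4), 6 (ENSMUST00000028881.13), 12 (ENSMUST00000196871.1) and 14 (ENSMUST00000228637.1). The planned gene sums were not run.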
